A study of Mus musculus with 96 samples.

Results

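The apolipoprotein and lipoprotein assembly set held 9 genes, chosen by symbol: Apoa1, Apoa2, Apoa4, Apoa5, Apob, Apoc3, Apoe, Mttp and Lipc. All 9 were found among the 55421 identifiers of the count table, and all 9 were among the 15772 genes that passed the filter on low counts. They were followed in mouse liver, in 96 RNA-seq libraries from animals 12 to 16 weeks old. A Bmal1 line and a Cry line were each sampled as wild type (WT) and knockout (KO), with food either available at all times (ad libitum, AL) or restricted to the night (RF). Livers were collected every 4 h at 6 times of day, given as zeitgeber time (ZT), which counts from lights on. The 8 groups were therefore Bmal1 WT and Bmal1 KO, and Cry WT and Cry KO, each under AL and under RF, with 12 libraries per group and 2 per group and time. Bmal1 KO animals lack the clock activator BMAL1, encoded by Arntl, and Cry KO animals lack both clock repressors, CRY1 and CRY2. The labels do not say whether the knockouts are confined to the liver, and they name no animal for a library. The p-values therefore measure how far these libraries spread, which may be technical.

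Lipoproteins carry triglyceride and cholesterol through plasma as particles wrapped in apolipoproteins, and the liver secretes both very-low-density lipoprotein (VLDL) and the proteins of high-density lipoprotein (HDL). Apolipoprotein B, from Apob, is the scaffold of VLDL and is loaded with lipid by microsomal triglyceride transfer protein, from Mttp. Apoa1 and Apoa2 encode the main HDL proteins, Apoa4 a lipid-binding apolipoprotein made mostly in the intestine, Apoa5 an activator and Apoc3 an inhibitor of triglyceride clearance, Apoe a ligand for hepatic remnant uptake, and Lipc hepatic lipase.

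Apoa1, Apoc3, Apoa4 and Apoa5 lie together within 43.34 kb of mm10 chromosome 9 (46228580 to 46271919), with Apoc3 on the minus strand and the others on the plus strand. Lipc is on the minus strand of chromosome 9 as well (70798128 to 70952226). The remaining members are Apoa2 on chromosome 1 (171225054 to 171226379), Mttp on chromosome 3 (138089854 to 138144968), Apoe on chromosome 7 (19696109 to 19699188) and Apob on chromosome 12 (7977648 to 8016835). Apoe shares its chromosome with Arntl, at a distance of 93.5 Mb.

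Promoters of 8 of the 9 members were matched in RefSeq (GRCm38.p6), as 250 bases before and 50 after the gene start. Apoc3 was not matched. A canonical E-box (CACGTG, the site that the BMAL1 and CLOCK heterodimer binds) was present in 1 of the 8, that of Apoa5, starting 82 bases before the gene start. This motif stood in 7.15% of all 32851 promoters of this length. No other match was found in the 8 promoters, on either strand, to the E-box, to the nuclear receptor half-site AGGTCA (16.3% of all promoters), to a D-box (TTATGTAA, 0.938%) or to the HNF4 core CAAAGTCCA (0.475%). The stretch before the start is shown for Apoa5, because it alone held the E-box and Apoa5 alone was called rhythmic, and for Lipc, which was higher in Bmal1 KO. Capitals mark the E-box, and a match is a description of the letters only.
Apoa5 (GRCm38.p6, chr9:46268358-46268607, plus strand): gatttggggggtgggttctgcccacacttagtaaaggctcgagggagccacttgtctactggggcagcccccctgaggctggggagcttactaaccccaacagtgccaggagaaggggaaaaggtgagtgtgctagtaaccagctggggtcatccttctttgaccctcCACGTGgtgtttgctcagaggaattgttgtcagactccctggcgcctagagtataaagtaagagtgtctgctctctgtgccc
Lipc (GRCm38.p6, chr9:70952227-70952471, minus strand): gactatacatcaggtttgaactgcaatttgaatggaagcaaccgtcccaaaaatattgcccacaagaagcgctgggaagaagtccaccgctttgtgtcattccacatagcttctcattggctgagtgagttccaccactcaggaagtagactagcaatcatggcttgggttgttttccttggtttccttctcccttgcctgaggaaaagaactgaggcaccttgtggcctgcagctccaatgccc

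Total counts ran from 1478963 to 35568856 per library (median 25422366), and the members took 2.00% to 4.33% of them (median 3.51%). Whole-gene counts of Arntl stayed between 9.71 and 21.2 CPM (counts scaled to the normalised total of the library) in the Bmal1 KO groups, and those of Cry1 at 5.38 to 9.95 CPM and of Cry2 at 17.8 to 26.6 CPM in Cry KO AL. Exons outside a deleted stretch still count, so these values do not check the deletions. The hepatocyte genes Alb, Ttr, Fabp1, Cps1, Ass1 and Tat had counts in all groups, with summed medians from 39921 CPM in Bmal1 KO AL to 96234 CPM in Cry KO RF. The intestinal factors Cdx1 and Cdx2 never exceeded 0.0529 and 0.0602 CPM. The number in each title was read as a series of 6 libraries, 2 series per group, and 1 series stood apart. Between series 2 and series 1 of Cry KO AL, 6 of the 9 members differed by more than 1.5-fold in mean level, against 0 or 1 of 9 in each of the other groups.

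The ratio of series 2 to series 1 in Cry KO AL ran from 0.529 for Apob, the longest member at 13934 exonic bases, to 2.83 for Apoc3, at 1014 bases. Over 15750 genes with a length, the log2 ratio of series 2 to series 1 had a median of 0.41 among the shortest genes (up to 2305 bases) and −0.48 among the longest (from 6331 bases), the lower and upper quartiles of length. The correlation of that ratio with log2 length was −0.27 as a description across genes, and lay between −0.11 and 0.17 for the series of the other 7 groups. Summed acute phase genes were higher in series 2 (median 8022 against 2825 CPM). So were hepatocyte (89605 against 72058 CPM) and cholangiocyte markers (79.6 against 47.4 CPM). Endothelial (154 against 427 CPM), stellate (165 against 264 CPM) and Kupffer cell and macrophage markers (278 against 479 CPM) were lower. The part of gene length in these sums was not tested. The part of these differences in the results of Cry KO AL was not tested, so those results are given with and without series 2.

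**Figure D1:**
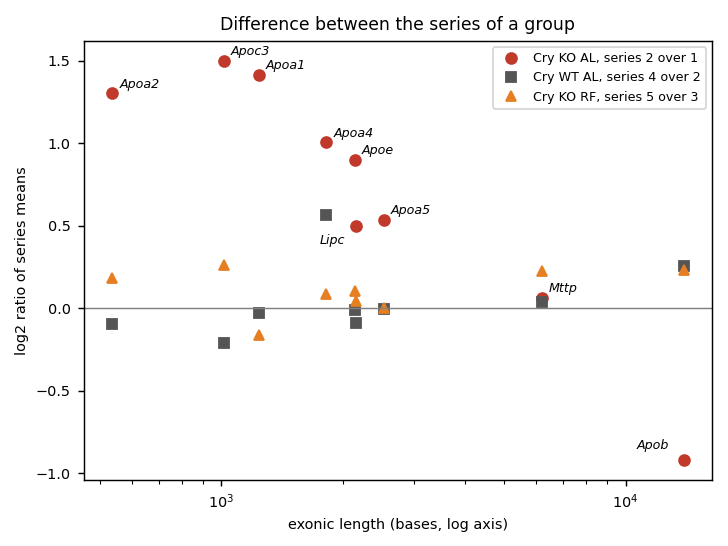
Log2 ratio of the mean level in the higher-numbered series to that in the lower-numbered series (vertical axis) against exonic length in bases (log axis) for the 9 members, in Cry KO AL (circles), Cry WT AL (squares) and Cry KO RF (triangles). In Cry KO AL the shorter members have the higher ratios, up to 2.83 (as a ratio) for Apoc3, and Apob, the longest, the lowest (0.529), while the members of Cry KO RF lie between 0.893 and 1.20.

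Levels are normalised CPM, and per kilobase of exon where genes are compared with each other. In Bmal1 WT AL, Apoa2 had the highest mean level per length (8694 CPM per kb), followed by Apoe (6918), Apoa1 (5075), Apoc3 (1147), Apob (599), Apoa5 (255), Lipc (70.5), Mttp (55.8) and Apoa4 (11.0). Apoa4, the intestinal apolipoprotein, was thus by far the lowest of the set in liver. Across the 8 groups the mean CPM of Mttp varied least, 1.17-fold from 301 CPM in Bmal1 WT RF to 351 CPM in Cry KO RF. Apoa4 varied most, 4.33-fold from 14.3 CPM in Cry WT AL to 62.0 CPM in Cry KO RF. Lipc followed at 2.23-fold, from 115 CPM in Cry KO RF to 257 CPM in Bmal1 KO AL. For Apoa1, Apoa2, Apoa5, Apoc3 and Apoe the highest group was Cry KO AL, and this rests on its series 2 for all but Apoa5, whose series 1 mean (700.3 CPM) was also above the other groups. In bulk liver, fewer cells of a type and less RNA per cell cannot be told apart.

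**Figure D2:**
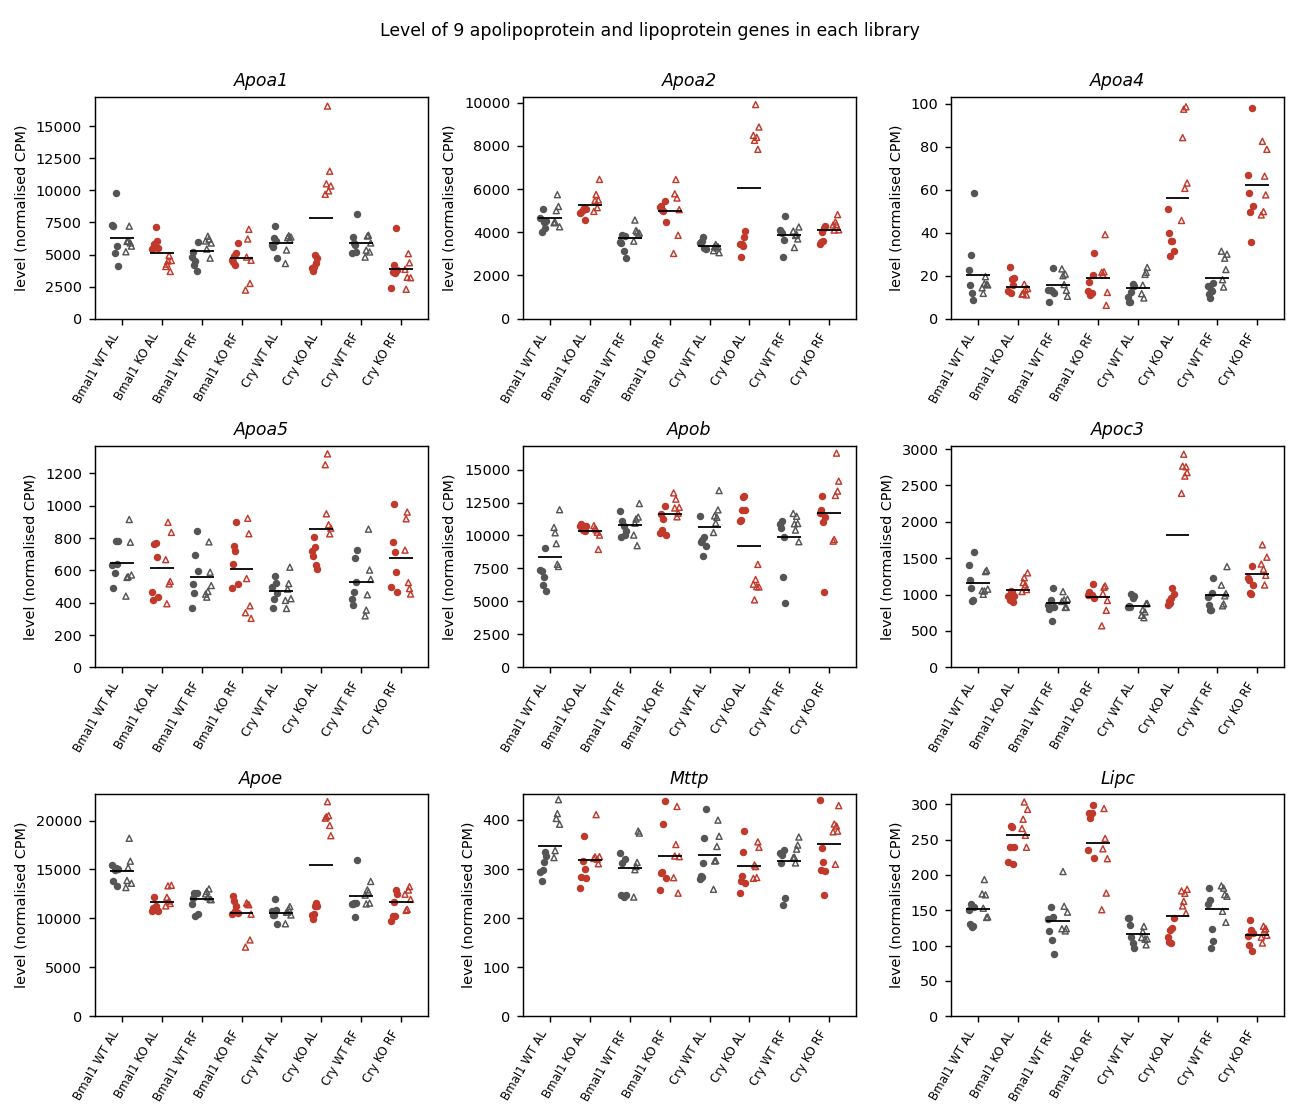
Level (normalised CPM) of each member in all 96 libraries, by group, WT grey and KO red. Circles are the lower-numbered and open triangles the higher-numbered series of a group, and bars are means of 12 libraries. Apoa4 spans 28.9 to 98.5 CPM in Cry KO AL and 35.5 to 97.9 CPM in Cry KO RF, Lipc is high in Bmal1 KO, and the triangles of Cry KO AL separate from its circles in Apoa1, Apoa2, Apoc3, Apoe and Apob, among others.

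Loss of BMAL1 went with higher Lipc. Under AL the 12 Bmal1 KO libraries had 215 to 303 CPM of Lipc (median 261), and the 12 Bmal1 WT libraries 126 to 193 CPM (median 151). No library of one genotype entered the range of the other. Under RF the KO libraries had 151 to 299 CPM (median 244) and the WT libraries 87.3 to 205 CPM (median 131), so the ranges overlapped, with 10 of 12 KO libraries above the highest WT library. Means differed by a log2 fold change of 0.76 ± 0.10 (SE; adjusted p = 7.08e-08) under AL and 0.86 ± 0.10 (adjusted p = 3.63e-09) under RF, and KO was higher at 6 of 6 times in both regimens. All fold changes of level are on the log2 scale, with the 6 times weighted equally. They and their p-values come from the quasi-likelihood test of edgeR, adjusted by Benjamini-Hochberg over the 15772 genes, with n = 12 per group. A gene is called at an adjusted p under 0.05. Leaving out any 1 of the 4 series left Lipc at 0.66 to 0.86 under AL and 0.68 to 0.99 under RF, each time called.

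In Bmal1 KO under AL, 2 of the 9 members were called, Lipc higher and Apoe lower, where 24.4% of all genes were called. Apoe had 10723 to 13376 CPM in Bmal1 KO AL (median 11395) and 13146 to 18187 CPM in WT (median 14998), and 10 of 12 KO libraries lay below the lowest WT library. Its fold change was −0.34 ± 0.11 (adjusted p = 0.0197), which was no longer called without series 1 or series 8 of WT (adjusted p = 0.0797 and 0.0735) or without series 1 of KO (0.171), nor with the series as a random effect in limma-voom (0.107). In Bmal1 KO under RF, 2 of 9 were called, Lipc and Apoa2, both higher, where 20.6% of all genes were called. Apoa2 had 3017 to 6443 CPM (median 5106) against 2790 to 4564 CPM (median 3830) in WT, with 9 of 12 KO libraries above the highest WT library. The fold change of Apoa2 was 0.42 ± 0.15 (adjusted p = 0.0354), and in none of the 4 fits without a series was it called (0.32 to 0.54). The VLDL genes Apob and Mttp and the Apoa4, Apoa5 and Apoc3 genes of the chromosome 9 cluster had no called change in either regimen, with fold changes from −0.33 to 0.31.

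The members' median fold change in Bmal1 KO was −0.12 under AL and 0.11 under RF, against medians of 0.02 and 0.01 over all genes. The summed hepatocyte markers moved with these comparisons: their median was 39921 CPM in Bmal1 KO AL against 93840 CPM in WT, with Alb, Fabp1 and Ttr called lower and none of the 6 higher. Their part in the values of Lipc, Apoe and Apoa2 was not tested. The difference of the knockout effect between RF and AL in the Bmal1 line was called for 0 of 9 members by edgeR, which called 0.0% of all genes. The count was also 0 at an unadjusted p under 0.05, by DESeq2 and by limma-voom. With no filter on low counts 1 member was called, Apoa4 (0.57).

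Loss of both CRY proteins went with higher Apoa4 under both feeding regimens. Cry KO AL libraries had 28.9 to 98.5 CPM of Apoa4 (median 48.2), and Cry WT AL libraries 7.67 to 23.8 CPM (median 13.8). Cry KO RF libraries had 35.5 to 97.9 CPM (median 58.0), and Cry WT RF libraries 9.81 to 31.3 CPM (median 15.9). All 12 KO libraries lay above all 12 WT libraries in each regimen. The fold change was 2.00 ± 0.25 (adjusted p = 1.89e-08) under AL and 1.76 ± 0.25 (adjusted p = 6.02e-07) under RF. Series 1 of Cry KO AL alone spanned 28.9 to 50.8 CPM, still above every Cry WT AL library, and without series 2 the fold change was 1.42 ± 0.27 (adjusted p = 0.000337). The effect of the genotype on Apoa4 was not called different between regimens (−0.25 ± 0.34, adjusted p = 0.711).

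Since Apoa4 is chiefly an intestinal gene, enterocyte markers were set beside it. The 8 markers Fabp2, Lct, Sis, Alpi, Cdx1, Cdx2, Treh and Slc5a1 summed to a median of 27.1 CPM in Cry KO RF (range 18.5 to 49.8) and 36.3 CPM in Cry WT RF (18.9 to 43.7). In Cry KO AL the sum had a median of 27.9 CPM in series 1 and 66.5 CPM in series 2, against 35.2 CPM in Cry WT AL. The median sum was lower than in WT in Cry KO RF and in series 1 of Cry KO AL, in which Apoa4 was above all Cry WT libraries of the same regimen. Fabp2 made up most of the sum, with 75809 counts in all libraries together. Lct, Sis, Alpi, Cdx1 and Cdx2 were nearly absent (38, 4, 11, 1 and 3 counts), and Cdx1 was at 0 in all 48 Cry-line libraries. Only 3 of the markers passed the filter, and they did not move together. In Cry KO AL without series 2, Slc5a1 was called higher (0.69) and Treh lower (−2.50), while Fabp2 was not called (−0.40). In series 2 the higher sum went with higher Apoa4. Fabp2 has 965 exonic bases, and the shortest genes tended to be higher in that series. The part of intestinal cells in Apoa4 was not tested. Genes on the opposite strand that overlap Apoa4 held 342 and 0 counts in all libraries together, against 55141 for Apoa4.

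**Figure D3:**
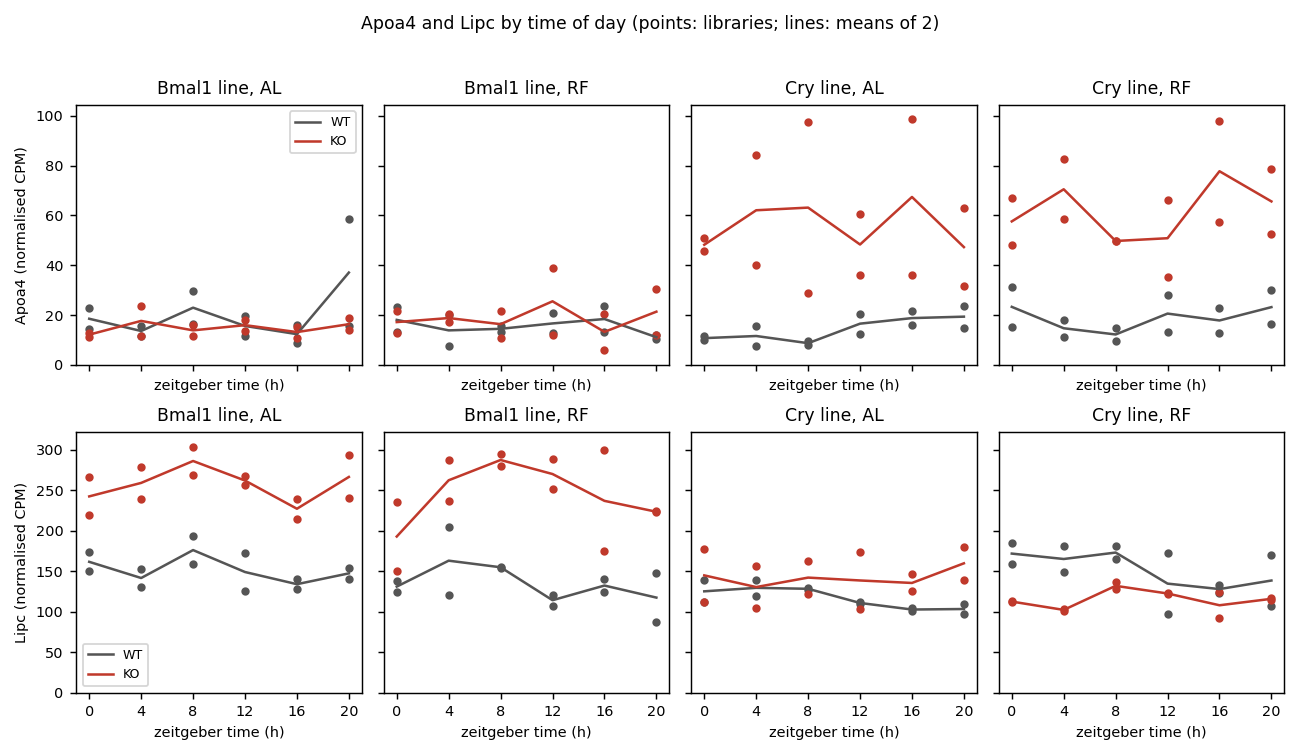
Apoa4 (top) and Lipc (bottom) in normalised CPM against zeitgeber time in hours, by line and feeding, WT grey and KO red. Points are libraries and lines join the means of 2. The Cry KO points of Apoa4 lie above the Cry WT points at all 6 times in both regimens (lowest KO and highest WT value 28.9 and 23.8 CPM under AL, 35.5 and 31.3 CPM under RF), and the Lipc means are higher in Bmal1 KO than in WT at all 6 times.

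Apoa5, the activator of triglyceride clearance, was higher in Cry KO under AL. Its KO libraries had 611 to 1321 CPM (median 816) and its WT libraries 364 to 619 CPM (median 471), with 11 of 12 KO libraries above the highest WT library. The fold change was 0.86 ± 0.12 (adjusted p = 3.28e-07), and 0.58 ± 0.14 (adjusted p = 0.00567) without series 2. Under RF the ranges were 454 to 1011 CPM (median 653) in KO and 319 to 855 CPM (median 499) in WT, and the difference was not called (0.36 ± 0.12, adjusted p = 0.0562). It was called under 6 of 10 alternative settings of the fit, with values from 0.32 to 0.39.

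In Cry KO under AL, 6 of the 9 members were called, all higher, where 33.0% of all genes were called. Besides Apoa4 and Apoa5 these were Apoc3 (1.11 ± 0.17), Apoa2 (0.84 ± 0.15), Apoe (0.55 ± 0.11) and Lipc (0.29 ± 0.10), and the members' median was 0.55 against −0.03 over all genes. Without series 2, Apoa4 and Apoa5 alone were called, 845 of all genes were, and the others stood at 0.17 for Apoc3, 0.04 for Apoa2, 0.03 for Apoe and 0.01 for Lipc. Apoc3, the clearance inhibitor, had 853 to 1095 CPM in series 1 and 2391 to 2929 CPM in series 2, against 682 to 1011 CPM in WT. Apoa2 behaved alike, with 2848 to 4058 CPM in series 1, 7841 to 9913 CPM in series 2 and 3052 to 3783 CPM in WT. Series 1 of both genes overlapped WT, and series 2 lay above it entirely. Apoa1, the main HDL protein, averaged 4286 ± 503 CPM in series 1 (SD, n = 6) and 9697 CPM or more in each library of series 2, with WT at 4296 to 7202 CPM, and was not called (0.41 ± 0.18, adjusted p = 0.0741). Apob went the other way, at 11061 to 13023 CPM in series 1 and 5116 to 7807 CPM in series 2, with WT at 8481 to 13407 CPM, and was not called either (−0.22 ± 0.14). Without series 2 both changed direction, Apoa1 to −0.46 ± 0.16 and Apob to 0.17 ± 0.14, and neither was called.

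In Cry KO under RF, 3 of the 9 members were called, Apoa4 higher and Apoa1 and Lipc lower, where 6.3% of all genes were called. Apoa1 had 2287 to 7106 CPM (median 3699) in KO and 4797 to 8144 CPM (median 5823) in WT, and 10 of 12 KO libraries lay below the lowest WT library. Its fold change was −0.63 ± 0.18 (adjusted p = 0.0240). It was not called without the 7 libraries high in acute phase, interferon or pancreatic transcripts (−0.57, adjusted p = 0.143), nor without series 6 or 9 of WT or series 5 of KO (−0.58, −0.66 and −0.59). Lipc had 91.6 to 136 CPM (median 116) in KO and 97.0 to 185 CPM (median 162) in WT, an overlap of most KO libraries with the lower WT libraries. Its fold change was −0.39 ± 0.10 (adjusted p = 0.0131), and without series 9 of WT it was −0.23 (adjusted p = 0.360). It was not called without series 3 or series 5 of KO either (−0.36 and −0.42). The members' median was 0.15, against −0.03 over all genes.

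**Figure D4:**
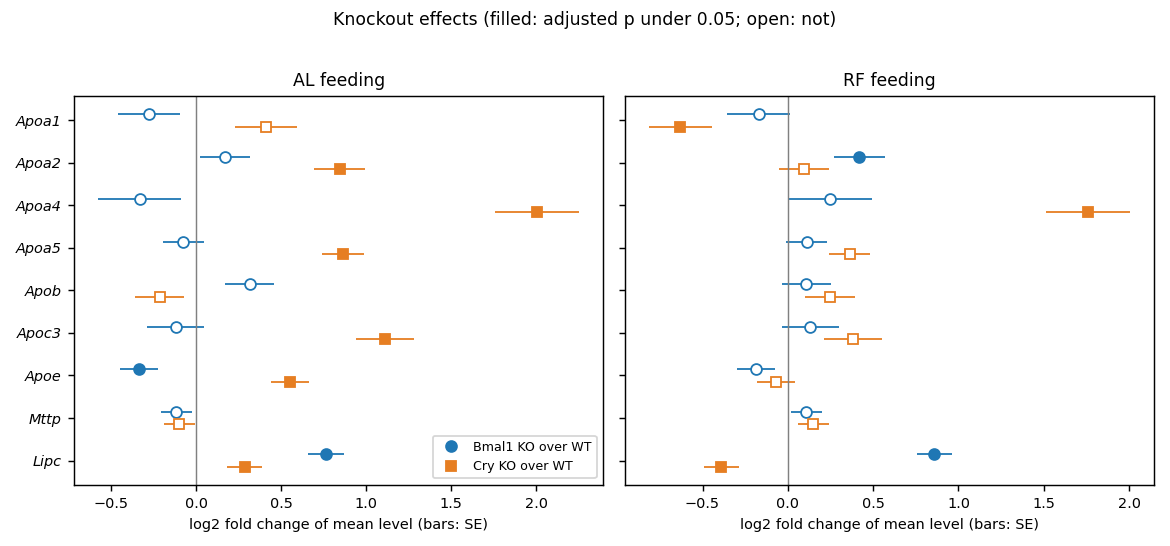
Difference between KO and WT in mean level (log2 fold change) of each member under AL (left) and RF (right), in the Bmal1 line (circles) and the Cry line (squares). Bars are standard errors, and filled symbols have an adjusted p under 0.05. Apoa4 stands at 2.00 and 1.76 in the Cry line and Lipc at 0.76 and 0.86 in the Bmal1 line, and the other filled symbols of the Cry line under AL rest on series 2 except that of Apoa5.

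The knockout effects of the lines were compared directly, Cry minus Bmal1. Under RF 2 of 9 members were called, Apoa4 (1.51 ± 0.35, adjusted p = 0.00102) and Lipc (−1.25 ± 0.15, adjusted p = 2.47e-09), where 15.2% of all genes were called. Both differences were called in every fit run, including those without each series. Under AL 8 of 9 were called, all but Mttp, where 40.8% of all genes were called. Of these, 4 were called without series 2 of Cry KO AL: Apoa4 (1.77), Apoa5 (0.67), Apoe (0.39) and Lipc (−0.74). The 40.8% is from the fit of all libraries, and the share without series 2 is not given. The difference in Lipc was −0.48 ± 0.15 with all libraries and was not called without series 1 of Cry KO AL (−0.20), series 2 of Cry WT AL (−0.42), series 1 of Bmal1 WT AL (−0.39) or series 8 of Bmal1 KO AL (−0.35).

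Night feeding was then compared with AL within each genotype. In Bmal1 WT, RF against AL called 0 of 9 members with edgeR, 5 at an unadjusted p under 0.05, 2 with DESeq2 and 2 with limma-voom, where 15.7% of all genes were called. Apoe there had 10255 to 13011 CPM under RF and 13146 to 18187 CPM under AL, ranges that did not meet, with a fold change of −0.30 ± 0.11 (adjusted p = 0.0524). Over genes with a length, the median log2 difference in Bmal1 WT was −0.11 among the shortest and 0.17 among the longest. The part of gene length in the members' values was not tested. In Bmal1 KO 0 of 9 were called by edgeR, DESeq2 and limma-voom alike, with 0 at an unadjusted p under 0.05, where edgeR called 0.545% of all genes. In Cry WT 1 of 9 was called, where 1.59% of all genes were called: Lipc had 97.0 to 185 CPM under RF (median 162) and 97.1 to 139 CPM under AL (median 112), and 8 of 12 RF libraries were above the highest AL library (0.38 ± 0.10, adjusted p = 0.0438). That call was lost without series 9 of RF (0.23), series 2 of AL (0.43) or series 4 of AL (0.33).

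In Cry KO, RF against AL called 6 of 9 members, all lower, where 18.2% of all genes were called: Apoa1 (−1.04 ± 0.18), Apoa2 (−0.56), Apoc3 (−0.51), Apoe (−0.42), Apoa5 (−0.37) and Lipc (−0.30). The AL arm of this comparison is the group whose series differ. Without series 2, Apoc3 alone was called and in the other direction (0.43, adjusted p = 0.0375), and Apoa1 and Apoa5 stood at −0.17 and −0.08. In the fit of these groups alone 0 of 9 were called, and without the 3 shallowest libraries 2 were, Apoa1 (−1.01) and Apoe (−0.36). The shares of all genes called in these other fits are not given. The difference of the knockout effect between RF and AL in the Cry line was called for 4 of 9 members, where 6.33% of all genes were called: Apoa1 (−1.04 ± 0.26), Apoa2 (−0.75 ± 0.21), Lipc (−0.67 ± 0.15) and Apoe (−0.62 ± 0.16). Without series 2 of Cry KO AL none of the 4 and 0 of all genes were called, and Apoa1, Lipc and Apoe stood at −0.17, −0.40 and −0.10. These comparisons share the Cry KO AL libraries, so they are not separate evidence.

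The WT groups of the lines were compared to describe how far their libraries differ. Under AL 5 of 9 members were lower in Cry WT than in Bmal1 WT, where 20.5% of all genes were called in either direction: Apoe (−0.48 ± 0.11), Apoa2 (−0.47), Apoc3 (−0.46), Apoa5 (−0.44) and Lipc (−0.38). Between 1 and 3 of these were called without any 1 of the 4 series, fits for which the share of all genes is not given. Apoe, for example, had 9386 to 12005 CPM in Cry WT AL, below every Bmal1 WT AL library. Under RF 0 of 9 were called by edgeR, DESeq2 and limma-voom, with 0 at an unadjusted p under 0.05, where edgeR called 0.856% of all genes. Over genes with a length, the median log2 difference under AL was −0.11 among the shortest (up to 2305 bases) and 0.18 among the longest (from 6331 bases). Under RF these medians were 0.03 and −0.04. Of the members called under AL, all but Apoa5 (2522 bases) are among the shortest genes, as is Apoa1, at −0.08. The part of gene length in these values was not tested. The line and any other difference between the animals or libraries of the lines cannot be told apart here.

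Rhythm was tested with a 24 h cosine in each group and called at an adjusted p under 0.05 when the fitted curve spanned 0.5 log2 or more from trough to peak. Apoa5 was the only member called, and only under RF: 1 of 9 in Bmal1 WT RF (12.8% of all genes), 1 of 9 in Bmal1 KO RF (5.26%), 1 of 9 in Cry WT RF (18.9%) and 1 of 9 in Cry KO RF (6.63%). Under AL 0 of 9 were called in Bmal1 WT (9.97% of all genes), Bmal1 KO (0.0317%), Cry WT (6.67%) and Cry KO (0.0%), with 1, 0, 1 and 0 members at an unadjusted p under 0.05 in edgeR and 0 of 9 in each by a test of any difference among the 6 times. The difference of rhythm between RF and AL was called for 0 of 9 members in Bmal1 WT (0.0127% of all genes), Bmal1 KO (0.0%), Cry WT (0.0888%) and Cry KO (0.0%), with 0 at an unadjusted p under 0.05 in each. Apoa5 under AL had fitted ranges of 0.65 in Bmal1 WT and 0.52 in Cry WT with peaks at ZT 14.5 and 14.8, so a rhythm confined to RF is not shown.

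In night-fed WT livers Apoa5 peaked early in the night. Cry WT RF libraries had 425 and 319 CPM at ZT0, 384 and 354 CPM at ZT4, and 468 and 449 CPM at ZT8. They had 678 and 855 CPM at ZT12, followed by 531 and 602 CPM at ZT16 and 727 and 544 CPM at ZT20. Every library from ZT12 on was above every library before it, and the fitted range was 1.003 log2 with a peak at ZT 14.7 (adjusted p = 0.00567). Bmal1 WT RF had a range of 0.82 and a peak at ZT 14.3 (adjusted p = 0.0303).

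In night-fed Cry KO livers Apoa5 peaked earlier than in Cry WT. Cry KO RF libraries had 499 and 725 CPM at ZT0, 778 and 919 CPM at ZT4, and 1011 and 961 CPM at ZT8. They then had 713 and 524 CPM at ZT12, 592 and 487 CPM at ZT16, and 468 and 454 CPM at ZT20. The highest values thus came at ZT8, when the WT libraries were still low, and the fitted peak was at ZT 6.63 with a range of 1.02 (adjusted p = 0.00941). The rhythm differed between Cry KO and Cry WT under RF (adjusted p = 0.00224), with a difference in range of 0.021 log2 and fitted peaks at ZT 6.63 and 14.7. This was the 1 member of 9 called in that comparison, where 2.66% of all genes were called, and the call was lost without series 9 of WT (adjusted p = 0.0689) or series 5 of KO (0.120). Bmal1 KO RF had its fitted peak at ZT 10.1 with a range of 1.11 (adjusted p = 0.00758), but its rhythm was not called different from that of Bmal1 WT RF (adjusted p = 0.289). In series 2 the highest Apoa5 value came at ZT16 in both genotypes of the Bmal1 line, at 900.2 CPM in KO and 841 CPM in WT. In series 4 it came at ZT8 in KO (922 CPM) and at ZT12 in WT (776 CPM). The series numbers are not taken to pair KO with WT.

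**Figure D5:**
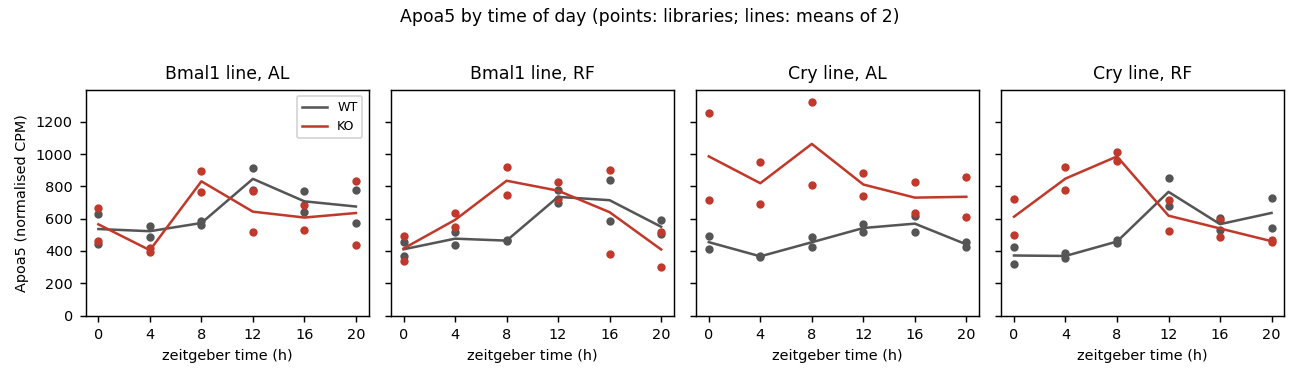
Apoa5 in normalised CPM against zeitgeber time in hours, by line and feeding, WT grey and KO red. Points are libraries and lines join the means of 2. Under RF the Cry KO mean is highest at ZT8 (986 CPM) and the Cry WT mean at ZT12 (766 CPM).

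The other rhythm differences between genotypes called 0 of 9 members: Bmal1 line under AL (0.767% of all genes called), Bmal1 line under RF (1.32%) and Cry line under AL (0.913%), with 0, 1 and 1 members at an unadjusted p under 0.05 in edgeR and 0 in each by the test among the 6 times. The Apoa5 rhythm of Bmal1 WT RF and Cry KO RF was called in neither fit that left out 1 of the group's series. That of Bmal1 KO RF was not called without series 4, and that of Cry WT RF not without series 9. In both WT groups under RF, each of the series was higher at ZT12 than at ZT4. The median fitted range of the 9 members was below that of all genes in all 8 groups, from 0.19 against 0.46 in Bmal1 WT RF, the widest gap, to 0.39 against 0.41 in Cry WT AL, the narrowest. The fitted range is never negative, and its median over all genes was 0.33 in Cry KO AL, where 0.0% of genes were called rhythmic. A lower range therefore need not mean a weaker rhythm.

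Over the 48 means of group and time, the members did not move as a block. As a description, Pearson's r of log2 level was 0.80 between Apoa4 and Apoc3, neighbours in the chromosome 9 cluster, and 0.15 between Apoa1 and Apoc3 in the same cluster. The lowest value was −0.74, between Apob and Apoe. Points share libraries, and series 2 of Cry KO AL is part of 6 of them. By the fixed rule of the nearest genes among the 15772, Apoa4 was most like Smpdl3b (r = 0.88), Cyfip2 (0.87) and Vpreb3 (0.87), Lipc most like Cops6 (0.92), and Apoa2 most like Ndufv3 (0.92). Mttp had no close neighbour, with Gbe1 the nearest at 0.64.

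Other genes of lipoprotein metabolism were taken from lists, and each count is set beside the share of all genes called. In Bmal1 KO AL 13.7% of all genes were higher and 10.7% lower. Of 7 further apolipoprotein genes tested, 3 were higher there and 1 lower, and the 1 was Apom, a sphingolipid carrier of HDL, at −0.92 ± 0.12 (adjusted p = 1.32e-08). Of 9 lipases, transfer proteins and inhibitors, 1 was higher and 3 lower. The higher one was Lpl, the lipase that acts in peripheral capillaries, at 362 to 782 CPM in Bmal1 KO AL against 10.2 to 58.1 CPM in WT, with no overlap (4.27 ± 0.22, adjusted p = 3.01e-22). Pltp (−1.27), which transfers phospholipid between particles, and Lipg (−1.46), endothelial lipase, were lower. Of 14 genes of assembly and secretion, 1 was higher and 3 lower, including the triglyceride synthesis gene Dgat2 (−0.49), and Mttp itself was called in none of the 14 comparisons of level. Of 28 regulators of apolipoprotein genes, 3 were higher and 11 lower, among them Nr1d1, the REV-ERBα repressor (−3.68), and the liver factor Cebpa (−0.64). Of 18 other secreted liver proteins, 2 were higher and 6 lower, and their summed median was 91463 CPM in Bmal1 KO AL against 151756 CPM in WT.

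In Cry KO AL 19.7% of all genes were higher and 13.3% lower, and without series 2, a fit of the lists added after the data were seen, 2.72% and 2.64%. Of the 7 apolipoprotein genes 4 were higher, among them Apoc4 (0.95) and Apoc1 (0.76). Without series 2 none of the 7 was higher and 1 was lower, with Apoc4 at −0.05 and Apoc1 at −0.01. Of the 14 assembly genes 6 were higher and 2 lower, and of the 18 secreted proteins 9 were higher. Without series 2, 0 of the 14 and 0 of the 18 were called by edgeR, with 1 and 1 at an unadjusted p under 0.05. Of the 28 regulators 10 were higher and 1 lower, and without series 2 3 were higher. Nr1d1 rose by 1.61 with all libraries and by 1.56 without series 2, while Cebpa was called at 0.37 with all libraries and not without series 2 (0.23). Lpl was lower in Cry KO AL both with all libraries (−1.11) and without series 2 (−0.99, adjusted p = 0.0129), and it was lower in Cry KO RF (−0.87). In Cry KO RF, where 3.28% of all genes were higher and 3.02% lower, 3 of the 28 regulators were higher and 1 lower, and 1 of the 18 secreted proteins was lower.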

How the data were processed

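Per the labels, RNA from liver was made into TruSeq stranded mRNA libraries. The aligner was STAR 2.4.0i and the build mm10, per the submitters' processing notes. Which program counted the reads, with which strand setting and gene models, is not given in the sources used here. The authors deposited raw counts per Ensembl gene, and GENCODE M21 gave a symbol for 55154 of the 55421 identifiers. The members and lists were chosen with earlier results of these data known. Levels are TMM-normalised CPM. edgeR 4.0.16 (R 4.3.3) fitted all 96 libraries after filterByExpr (minimum count 10, total 15; 15772 of 35670 genes with any count, 99.9% of counts), with a mean per group and time for levels and a 24 h cosine per group for rhythm. Alternatives used RLE scaling, other filters, the compared groups alone, cosine intercepts, DESeq2 1.42.0, limma-voom (limma 3.58.1), the series as a block or random effect, and left out each series, the 3 shallowest libraries or 7 libraries over 5000 CPM of Saa1, 50 CPM of Isg15 or 40 CPM of Ctrb1. Named genes were, per list and comparison, up to 4 called genes with the smallest adjusted p, and the 3 nearest patterns of each member, of which some are given. Both models were run on simulated counts that held no difference between series, so this does not test them for series that differ. The 3 shallowest libraries held 1478963, 2694543 and 3181499 counts, with 86, 146 and 113 counts of Apoa4, and the lowest count of any member in any library was 80. An alternative chosen after seeing the data fitted the lists in Cry KO AL without series 2.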

Additional observations from a re-analysis of the deposited data

Results flagged for a closer look

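In 3 comparisons the effect of a genotype on a member differed between feedings or between lines by a test of the difference itself. In the Cry line the knockout effect differed between RF and AL by −1.04 log2 for Apoa1, −0.75 for Apoa2, −0.67 for Lipc and −0.62 for Apoe. Between the lines under AL, the Cry effect minus the Bmal1 effect was 2.34 for Apoa4, 1.23 for Apoc3, 0.94 for Apoa5, 0.89 for Apoe, 0.69 for Apoa1, 0.68 for Apoa2, −0.48 for Lipc and −0.53 for Apob. Under RF it was 1.51 for Apoa4 and −1.25 for Lipc. The rhythm of Apoa5 under RF differed between Cry KO and Cry WT, with a difference in range of 0.021 log2 and a peak at ZT 6.63 against 14.7. The values for RF against AL in the Cry line, and those for Apoa1, Apoa2, Apoc3 and Apob between the lines, were not called without series 2 of Cry KO AL. The part of that series in them beyond this was not tested.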

How the results depend on the processing

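Of 3366 member values recomputed, 3139 kept their side of the threshold, 165 lost a call, 56 gained one and 6 reversed. A reversal is a change of direction with a call in either fit. Values called in neither fit could change direction and still count as kept, and direction was not compared for rhythm. With the series as a random effect in limma-voom, the members called were 1 for Bmal1 KO under AL and 1 under RF, 1 for Cry KO under RF, 0 for RF in Cry WT, 0 for RF in Cry KO, 0 for the Cry effect by feeding, 4 for Cry minus Bmal1 under AL and 0 between the WT lines under AL. In the fits of the compared groups alone they were 5 for Cry KO under RF, 4 for RF in Bmal1 WT, 0 for RF in Cry KO and 0 for the Cry effect by feeding. With no filter on low counts they were 5 for Cry KO under RF, 2 for RF in Bmal1 WT, 2 for RF in Cry WT and 1 for the Bmal1 effect by feeding, and for rhythm 1 in Cry WT AL, 2 in Cry WT RF, 2 in Cry KO RF and 1 for the genotype difference in the Cry line under AL. RF in Bmal1 WT had 1 with a mean of at least 1 CPM, 1 without the 3 shallowest libraries, 3 with cosine intercepts, 2 with limma-voom and 2 with DESeq2. Without the 3 shallowest libraries RF in Cry KO had 2 and the Cry effect by feeding 0, which was also 0 with limma-voom and without the libraries that stood apart. Without the latter, the WT lines under AL had 3, and rhythm had 0 in Bmal1 KO RF and 0 in Cry KO RF. The test among the 6 times called 0 in Bmal1 WT RF, 0 in Bmal1 KO RF and 0 in Cry KO RF. The causes of these changes were not tested. Shares of all genes called are not set beside these counts or beside those without 1 series below. The counts show how the member calls moved with the fit, not how the members compare with all genes.

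Without 1 series at a time, the members called ranged from 1 to 2 for Bmal1 KO under AL, 1 to 1 under RF, 2 to 8 for Cry KO under AL and 1 to 2 under RF. The ranges were 0 to 1 for RF in Bmal1 WT, 0 to 1 in Cry WT, 1 to 7 in Cry KO, 0 to 7 for the Cry effect by feeding, 4 to 8 for Cry minus Bmal1 under AL, 2 to 3 under RF, and 1 to 3 between the WT lines under AL. For rhythm they were 0 to 0 in Bmal1 WT RF, 0 to 1 in Bmal1 KO RF, 0 to 1 in Cry WT RF, 0 to 0 in Cry KO RF, and 0 to 1 for the genotype difference under RF in each line. The 6 reversals all came without series 2 of Cry KO AL: for RF in Cry KO, Apoa2 0.24, Apoe 0.11 and Apoc3 0.43 (without series 1 −1.10, −0.83 and −1.11); for the Cry effect by feeding, Apoa2 0.052 (without series 1 −1.30); for Cry minus Bmal1 under AL, Apoa2 −0.11 and Apoa1 −0.16 (without series 1 1.24 and 1.27). With the replicate block, 4 members were called for Bmal1 KO under AL and 2 under RF; same-numbered libraries of that line had correlated deviations of −0.071 to 0.202, so the numbers were not taken to pair them, and the Cry WT and KO groups share at most 1 number, so no such fit could be made there. Fits without a series used the same genes and dispersion trend, and the fit with no filter used the trend of the filtered genes. No member had fewer than 80 counts in a library, and each group and time had 2 libraries, which limits the rhythm tests.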
